A study of Mus musculus with 24 samples.

Results

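The genes Opalin, Mbp, Mog, Mag, Mobp, Mal, Cnp, Ermn and Aspa, 9 genes of the oligodendrocyte and its myelin sheath, were followed through RNA sequencing of brain and liver from mice lacking single phenylalanine tRNA genes. The 9 were taken by their Ensembl identifiers from the 55469 genes of the brain table of normalised read counts, each matched 1 row, and all 9 were among the 19228 brain genes whose mean over the samples reached 10 normalised counts. They were selected on their brain values in these mice, so their brain levels are given below as a description without a test. Tests were run on what the choice did not use: the same genes in the liver, and the other genes of the oligodendrocyte lineage in the brain, 76 of which were measured above the minimum.

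By the paper's general methods, the mice were males on a C57BL/6N background, matched for age and kept on normal chow. Its reporting summary states that the study as a whole used both sexes. The sequenced mice were WT or homozygous for the loss of 1 phenylalanine tRNA gene (tRNA-Phe-1-1, or else tRNA-Phe-2-1, or else tRNA-Phe-3-1). The paper describes its mice both as littermate-matched and as taken from different litters. The age of the sequenced mice is not stated in the labels. Each of the 4 genotypes had 3 samples (A, B and C) in each of the 2 tissues, 24 in all. The labels do not say which part of the brain, or how much of it, gave the RNA. The deletions are constitutive and not limited to a cell type, the number of founder lines behind each was not taken from the labels, and the tRNA genes were not analysed here, so the deletions were not checked in these values. That the samples were separate animals is likewise not written in the labels, and the errors given measure the spread between these samples. The paper describes RNA from at least 3 WT and 3 mutant mice. The brain samples held 30365760 to 46225360 reads and the liver samples 32276896 to 51584522.

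Oligodendrocytes wrap axons of the central nervous system in layers of membrane, which compact into myelin and let impulses jump between the gaps in the sheath. The sheath needs very abundant structural proteins, among them Mbp, the myelin basic protein that holds the inner membrane faces together. Around it stand Mobp, a second basic protein of compact myelin, Mog and Mag, immunoglobulin-family proteins of the outermost and the axon-facing membrane, Cnp, the phosphodiesterase of the channels that remain open between the layers, and Mal, a carrier of lipid-rich membrane to the sheath. Opalin is a transmembrane glycoprotein of mature oligodendrocytes, Ermn (ermin) a cytoskeletal protein of late differentiation, and Aspa (aspartoacylase) the enzyme that splits N-acetylaspartate into acetate for lipid synthesis. Myelinating cells arise from Pdgfra-positive precursors through a short-lived, Gpr17- and Enpp6-expressing stage.

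Transcription of myelin genes in maturing oligodendrocytes is known to involve SOX10 and MYRF, so the 250 bases before the transcription start were taken from RefSeq (GRCm38.p6) and searched on both strands for ACAANG, the core of SOX-type sites, and CTGGNAC, that of MYRF-type sites, which did not overlap each other in the sequences shown. The table held 8 of the 9 genes. ACAANG was present in 6 of the 8 and in 36.6% of 27025 promoters of the same length, and CTGGNAC in 3 of the 8 and in 16.0% of all. Mobp had 6 matches to ACAANG and none to CTGGNAC, Ermn had 2 and none, and Mal and Aspa had no match to either. A selection of 4 upstream sequences is shown 5′ to 3′ on the strand of the gene, with the matches in capitals: that of Opalin, the gene furthest below WT, and the 3 that held both motifs, among them Cnp, which is also expressed in the liver. They lie at chr19:41077114-41077363 (Opalin, minus strand), chr17:37023399-37023648 (Mog, minus strand), chr7:30914864-30915113 (Mag, minus strand) and chr11:100574689-100574938 (Cnp, plus strand).
Opalin: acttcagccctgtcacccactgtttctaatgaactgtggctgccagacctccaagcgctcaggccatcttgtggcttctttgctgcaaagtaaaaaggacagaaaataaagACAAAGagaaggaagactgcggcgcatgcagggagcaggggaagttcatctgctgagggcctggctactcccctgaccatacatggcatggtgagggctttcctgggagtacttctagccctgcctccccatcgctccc
Mog: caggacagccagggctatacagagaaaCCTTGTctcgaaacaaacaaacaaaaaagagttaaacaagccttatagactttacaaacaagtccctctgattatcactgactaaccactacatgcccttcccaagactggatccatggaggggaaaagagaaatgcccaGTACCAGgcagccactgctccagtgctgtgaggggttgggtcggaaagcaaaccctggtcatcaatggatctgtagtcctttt
Mag: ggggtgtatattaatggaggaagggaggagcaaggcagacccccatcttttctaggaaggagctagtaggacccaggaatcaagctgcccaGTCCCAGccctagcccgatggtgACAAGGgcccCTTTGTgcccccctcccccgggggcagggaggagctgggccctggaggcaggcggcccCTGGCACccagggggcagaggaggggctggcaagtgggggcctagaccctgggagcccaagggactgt
Cnp: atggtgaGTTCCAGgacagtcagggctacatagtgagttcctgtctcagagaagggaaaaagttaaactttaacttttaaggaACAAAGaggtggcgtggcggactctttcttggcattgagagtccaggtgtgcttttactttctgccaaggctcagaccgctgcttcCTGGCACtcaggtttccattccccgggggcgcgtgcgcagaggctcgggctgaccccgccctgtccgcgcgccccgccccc
A match is only an occurrence of these letters in the window, and binding was not measured. Opalin had 1 match to ACAANG, Mog 1 match to each, Mag 2 matches to each, and Cnp 1 match to ACAANG and 2 to CTGGNAC.

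In WT brain the 9 genes spanned a wide range of levels. Per kilobase of the canonical transcript in the GENCODE vM39 annotation, mean WT levels were highest for Mbp, at 22900 normalised counts, and Mobp, at 14700, followed by Cnp (3650), Mal (2700) and Mag (2420). The levels per kilobase of Mog (710), Aspa (510), Ermn (465) and Opalin (228) were lower. The transcript used for the length may not be the one expressed in the tissue, so neighbours in this order should be read as close. Within WT the 3 samples stood near each other, with the highest sample at most 1.27 times the lowest for any of the 9.

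All 9 genes were lower in every tRNA-Phe-1-1-/- brain sample than in every WT sample, and none of the 9 was separated from WT in that way in tRNA-Phe-2-1-/- or tRNA-Phe-3-1-/-. For comparison, 12.4% of all brain genes tested lay wholly below WT in tRNA-Phe-1-1-/-, 5.43% in tRNA-Phe-2-1-/- and 8.48% in tRNA-Phe-3-1-/-. The choice of the genes used these contrasts, so nothing is read from the difference. On the log2(normalised count + 1) scale, the median difference from WT over the 9 genes was -0.98 in tRNA-Phe-1-1-/- (range -2.19 to -0.77), -0.38 in tRNA-Phe-2-1-/- (-0.48 to -0.30) and -0.19 in tRNA-Phe-3-1-/- (-0.23 to -0.04). The median over all brain genes was -0.0006, -0.0016 and 0.0018 in the same comparisons. In bulk tissue, fewer cells of a type and less RNA per cell cannot be told apart.

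**Figure D1:**
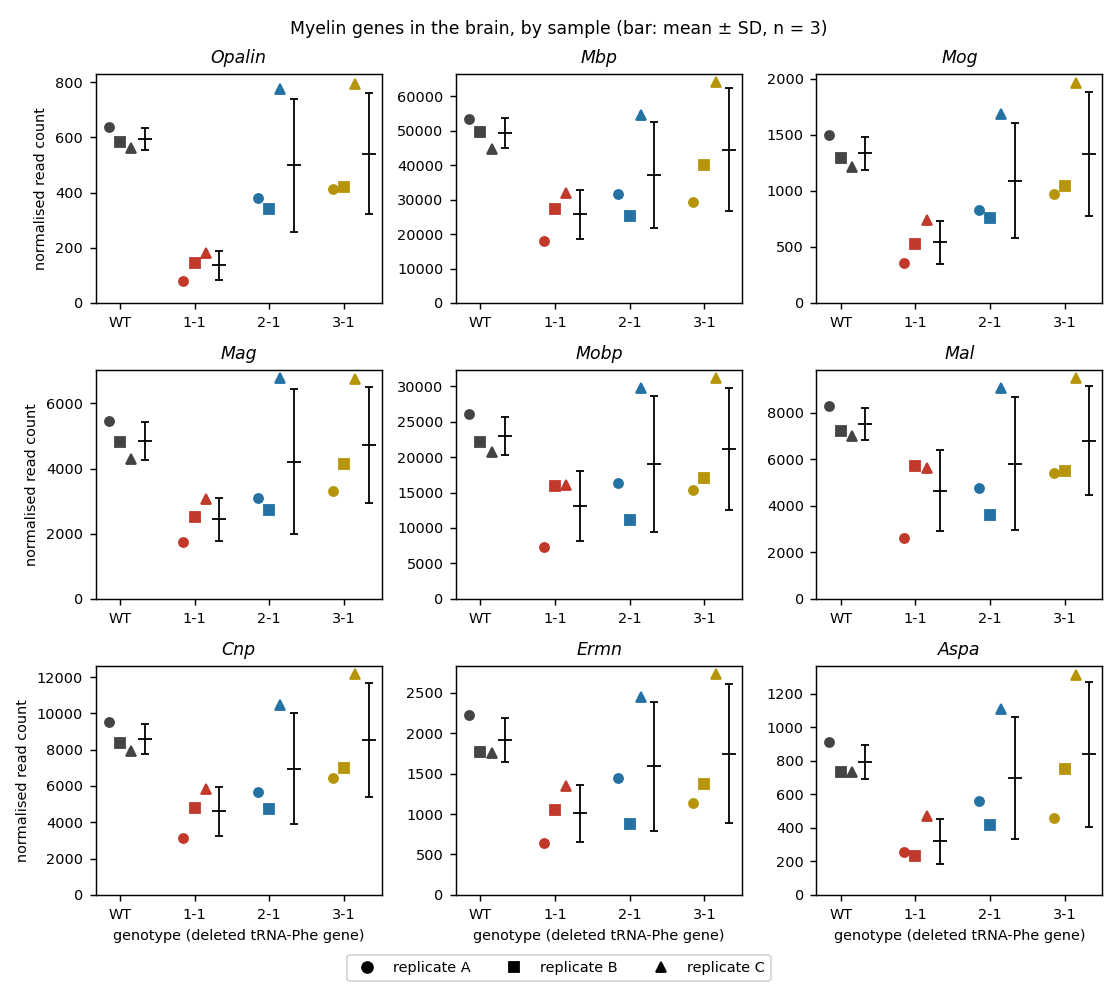
Normalised read counts of the 9 myelin genes in the 12 brain samples (vertical axes, each from 0) by genotype (horizontal axis), with a symbol for each replicate letter and the mean ± SD (n = 3) beside each group. In each panel the 3 tRNA-Phe-1-1-/- samples lie below the 3 WT samples, and replicate C of tRNA-Phe-2-1-/- and of tRNA-Phe-3-1-/- lies above WT.

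Opalin was the gene furthest below WT. Its counts were 636, 584 and 560 in WT A, B and C, against 80, 145 and 182 in tRNA-Phe-1-1-/-, 380, 342 and 777 in tRNA-Phe-2-1-/- and 412, 419 and 794 in tRNA-Phe-3-1-/-. The highest tRNA-Phe-1-1-/- value was therefore below the lowest value of every other group, while the other lines lay on both sides of WT. The mean was 136 ± 51.7 (SD, n = 3) in tRNA-Phe-1-1-/- and 594 ± 39.1 in WT, a log2 difference of -2.19 ± 0.37 (SE).

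The structural proteins of compact myelin differed less. Mbp was at 53491, 49537 and 44757 in WT and at 17998, 27208 and 31924 in tRNA-Phe-1-1-/-. It was at 31525, 25309 and 54585 in tRNA-Phe-2-1-/- and at 29318, 40163 and 64196 in tRNA-Phe-3-1-/-, so that replicate C of both lines exceeded all WT samples. The log2 difference from WT was -0.97 ± 0.32 (SE) in tRNA-Phe-1-1-/-, -0.48 ± 0.32 in tRNA-Phe-2-1-/- and -0.22 ± 0.32 in tRNA-Phe-3-1-/-. Mobp was at 26011, 22128 and 20757 in WT and at 7369, 15939 and 16043 in tRNA-Phe-1-1-/-, a log2 difference of -0.89 ± 0.39 (SE). Sample A of that line was far below B and C, which were close to each other. Mobp was at 16273, 11080 and 29719 in tRNA-Phe-2-1-/- and at 15339, 16990 and 31083 in tRNA-Phe-3-1-/-.

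The membrane proteins of the outer and inner faces of the sheath followed. Mog was at 1494, 1290 and 1216 in WT and at 355, 528 and 736 in tRNA-Phe-1-1-/-, a log2 difference of -1.36 ± 0.35 (SE). In tRNA-Phe-2-1-/- it was at 827, 760 and 1684, and in tRNA-Phe-3-1-/- at 974, 1042 and 1960. Both lines thus had A and B below WT and C above it. Mag was at 5453, 4824 and 4290 in WT and at 1755, 2528 and 3063 in tRNA-Phe-1-1-/-, a log2 difference of -1.02 ± 0.34 (SE). It was at 3109, 2743 and 6774 in tRNA-Phe-2-1-/- and at 3308, 4141 and 6736 in tRNA-Phe-3-1-/-. Mal, the lipid-raft carrier, showed the smallest difference of the 9, with 8301, 7230 and 7022 in WT against 2632, 5720 and 5613 in tRNA-Phe-1-1-/- (-0.77 ± 0.37, SE). Samples B and C of the knockout line were at 76.1% and 74.7% of the WT mean for Mal, and A was at 35.0%. In tRNA-Phe-2-1-/- it was at 4779, 3616 and 9066, and in tRNA-Phe-3-1-/- at 5414, 5504 and 9504.

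Cnp was at 9515, 8351 and 7943 in WT and at 3160, 4807 and 5853 in tRNA-Phe-1-1-/- (log2 difference -0.94 ± 0.32, SE). It was at 5650, 4748 and 10466 in tRNA-Phe-2-1-/- and at 6442, 7013 and 12161 in tRNA-Phe-3-1-/-. As for Mbp, replicate C of both lines was above WT. Ermn was at 2227, 1762 and 1760 in WT and at 639, 1046 and 1345 in tRNA-Phe-1-1-/- (-0.98 ± 0.40, SE). It was at 1440, 880 and 2454 in tRNA-Phe-2-1-/- and at 1141, 1375 and 2727 in tRNA-Phe-3-1-/-. Aspa was at 910, 730 and 735 in WT and at 254, 231 and 472 in tRNA-Phe-1-1-/- (-1.38 ± 0.42, SE). Aspa was the only member whose lowest knockout value was in replicate B. In tRNA-Phe-2-1-/- its counts were 562, 420 and 1106. In tRNA-Phe-3-1-/- its counts of 457, 749 and 1309 gave a mean of 838 ± 433 (SD, n = 3), above the WT mean of 792 ± 103, although the log2 difference was -0.04 ± 0.42 (SE).

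**Figure D2:**
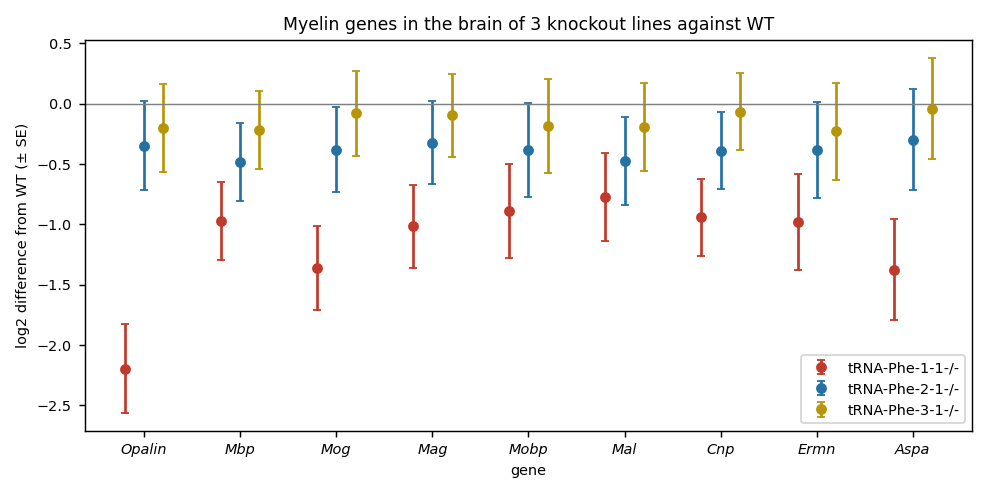
Difference of each of the 9 genes from WT in the 3 knockout lines, on the log2(normalised count + 1) scale (vertical axis), as the fitted value ± SE with 3 samples per group. Opalin in tRNA-Phe-1-1-/- is the lowest point at -2.19, and the other tRNA-Phe-1-1-/- points lie between -1.38 and -0.77.

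Read sample by sample, the 9 genes moved together and each knockout line held 1 sample that stood apart. As a percentage of the WT mean, the 9 genes had a median of 33.4% in tRNA-Phe-1-1-/- A, 54.6% in B and 64.8% in C. It was 64.0%, 53.0% and 128% in tRNA-Phe-2-1-/- A, B and C, and 68.1%, 78.1% and 139% in tRNA-Phe-3-1-/- A, B and C. The tRNA-Phe-1-1-/- A sample was the lowest of all 12 for 8 genes, and tRNA-Phe-3-1-/- C the highest of all 12 for 8. The ranges within a knockout line were wide, with the highest sample more than 2 times the lowest for 6 of the 9 genes in tRNA-Phe-1-1-/-, 9 in tRNA-Phe-2-1-/- and 6 in tRNA-Phe-3-1-/-. Samples A and B of tRNA-Phe-2-1-/-, at 45.9% to 75.2% of the WT mean, overlapped samples B and C of tRNA-Phe-1-1-/-, at 24.5% to 76.1%. Ordered by the median over the 9 genes, WT was followed by tRNA-Phe-3-1-/-, then tRNA-Phe-2-1-/- and last tRNA-Phe-1-1-/-. Neighbouring groups overlapped for each gene except 2 of the 9 between tRNA-Phe-2-1-/- and tRNA-Phe-1-1-/-. Over all brain genes, 1858 of 19228 were wholly lower in tRNA-Phe-1-1-/- than in tRNA-Phe-2-1-/- and 2144 wholly higher. The choice of the genes used their brain values, so nothing is read from this count.

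Leaving out single samples changed the size of these differences. Without any 1 of the samples the median log2 difference of the 9 genes lay between -1.20 and -0.74 in tRNA-Phe-1-1-/- and between -0.74 (without tRNA-Phe-2-1-/- C) and -0.13 (without tRNA-Phe-2-1-/- B) in tRNA-Phe-2-1-/-. In tRNA-Phe-3-1-/- it was -0.46 without tRNA-Phe-3-1-/- C, -0.05 without tRNA-Phe-3-1-/- B and 0.05, with its sign turned, without tRNA-Phe-3-1-/- A, and between these for the rest.

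Opalin stood apart from the other members as well as from WT. Each gene was set against the mean log2 level of the other 8 in the same sample and centred over the 12 samples, which takes out what the 9 genes share. Relative Opalin was between -1.0 and -0.79 in the 3 tRNA-Phe-1-1-/- samples and between 0.12 and 0.44 in the other 9 samples. Its mean was -0.86 ± 0.12 (SD, n = 3) in tRNA-Phe-1-1-/-, 0.29 ± 0.06 in WT, 0.34 ± 0.11 in tRNA-Phe-2-1-/- and 0.23 ± 0.12 in tRNA-Phe-3-1-/-. Samples B of tRNA-Phe-1-1-/- and of tRNA-Phe-2-1-/- show the same in counts, since Mbp was at 27208 and 25309 in them and Opalin at 145 and 342. Mog was lower relative to the other 8 in the same line by less, at -0.18 ± 0.08 (SD, n = 3) against 0.04 ± 0.01 in WT. Mal was higher relative to the other 8, at 0.37 ± 0.27 (SD, n = 3) against -0.07 ± 0.03 in WT. Part of this is built in, since the other 8 include Opalin, whose low level raises the relative values of the rest. In tRNA-Phe-1-1-/- the means of Mbp, Mag, Mobp, Cnp and Ermn were also above their WT means, at 0.095 to 0.25. Aspa varied most, between -0.79 and 0.11 within the line, with tRNA-Phe-1-1-/- B as its low sample. These relative values come from the contrast on which the genes were selected and were not tested.

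**Figure D3:**
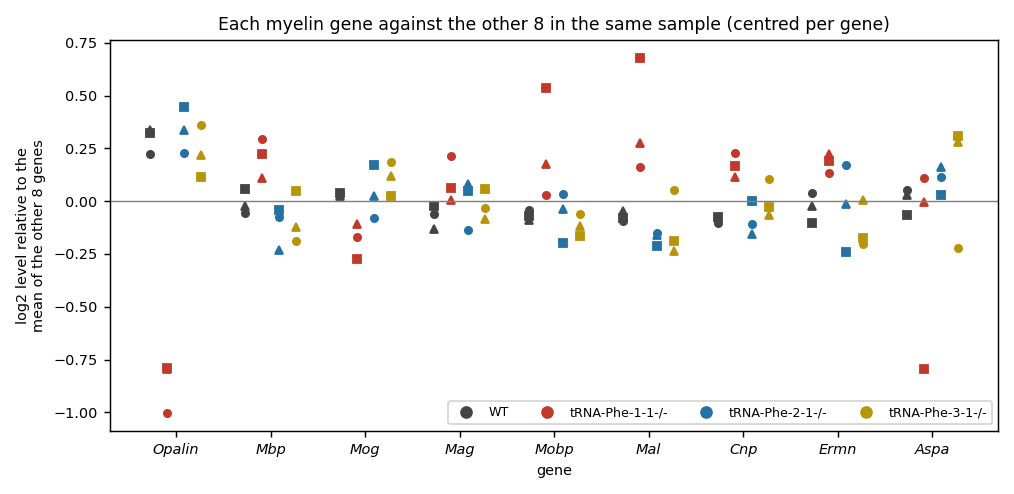
Log2 level of each of the 9 genes relative to the mean of the other 8 in the same brain sample, centred per gene (vertical axis), with circles, squares and triangles for replicates A, B and C and colours for genotypes. For Opalin the 3 tRNA-Phe-1-1-/- samples lie between -1.0 and -0.79 and the other 9 samples between 0.12 and 0.44.

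The rest of the oligodendrocyte lineage was examined in 6 lists, of myelin membrane and junction proteins, myelin lipid enzymes, other mature oligodendrocyte genes, transcription factors, newly formed oligodendrocyte genes and precursor genes. Of the 76 genes tested in tRNA-Phe-1-1-/- against WT, 62 had a negative and 14 a positive log2 difference, with a median of -0.51, and 44 lay wholly below WT beside the 12.4% of all genes that did. None of the 76 passed the threshold in the limma fit with Benjamini-Hochberg adjustment over all genes, where 1.05% of genes passed (202 of 19228, 120 higher and 82 lower). At an unadjusted p under 0.05 there were 34 lower and 2 higher of the 76, where 15.9% of all genes were at that level in either direction. The quasi-likelihood test of edgeR on the recovered reads also called 0 of the 76, where it called 0.973% of all genes. The limma count became 4 without tRNA-Phe-2-1-/- C, where 1.09% of all genes were called, and 3 without tRNA-Phe-3-1-/- C, where 1.46% were. In tRNA-Phe-2-1-/- against WT the median was -0.19, with 0 called of 76 where 0% of all genes were called by limma, and 0 called by edgeR, of the 76 as of all genes. At an unadjusted p under 0.05 there were 4 lower and 0 higher, beside 5.57% of all genes at that level. In tRNA-Phe-3-1-/- against WT the median was -0.08, with 0 called where 0% of all genes were called by limma, and 0 by edgeR, of the 76 as of all genes. At an unadjusted p under 0.05 there were 2 lower and 4 higher, beside 12.3% of all genes.

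The lists of the mature sheath and the lists of earlier stages differed in their medians in tRNA-Phe-1-1-/-. For the 12 other membrane and junction proteins the median log2 difference from WT was -0.99, all 12 were negative and all 12 lay wholly below WT. Pllp (plasmolipin), a membrane protein of myelin, was at 559 ± 133 (SD, n = 3) in tRNA-Phe-1-1-/- and 1330 ± 55.2 in WT, a log2 difference of -1.28 ± 0.27 (SE), and missed the threshold narrowly (limma adjusted p = 0.0503). Cadm4, the cell adhesion molecule by which myelin contacts the axon, was at 6086 ± 112 (SD, n = 3) against 6638 ± 690 in WT.

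The 7 enzymes of myelin lipid synthesis had a median of -0.77, with 7 of 7 negative and 5 wholly below WT. Ugt8a, which makes galactosylceramide, was at 1417 ± 394 (SD, n = 3) in tRNA-Phe-1-1-/- and 2961 ± 221 in WT (log2 difference -1.10 ± 0.34, SE, limma adjusted p = 0.152). Cers2, the ceramide synthase for very long chains, was at 1011 ± 147 (SD, n = 3) against 1330 ± 132. The 25 other genes of mature oligodendrocytes had a median of -0.79, with 25 of 25 negative and 19 wholly below WT. Trf (transferrin) was at 5305 ± 1243 (SD, n = 3) against 9907 ± 1484. Enpp2 (autotaxin) was at 5757 ± 819 (SD, n = 3) against 10080 ± 2062, but the choroid plexus also expresses Enpp2, and its count in tRNA-Phe-2-1-/- was 12250 ± 11510. By contrast, the 12 enzymes of cholesterol synthesis, which supply myelin but are used by many cells, had a median of -0.09, with 0 called. Hmgcs1, an early enzyme of the pathway, was at 7361 ± 581 (SD, n = 3) against 7986 ± 1029.

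Transcription factors of the lineage had a median of -0.17, with 9 of 10 negative and 5 wholly below WT, and 3 were lower at an unadjusted p under 0.05. St18 was lowest, at 124 ± 40.4 (SD, n = 3) in tRNA-Phe-1-1-/- and 359 ± 144 in WT, a log2 difference of -1.48 ± 0.44 (SE, limma adjusted p = 0.141). Olig1 was at 1212 ± 104 (SD, n = 3) in tRNA-Phe-1-1-/- and 1338 ± 26.4 in WT, and Zfp536 at 1198 ± 192 against 1253 ± 149. The 9 genes of newly formed oligodendrocytes had a median of -0.11 and went both ways, 3 lying wholly below WT and 1 wholly above it. They ranged from -1.86, the lowest value of all 76 lineage genes, to 0.36. Bcas1 was at 1795 ± 555 (SD, n = 3) against 3135 ± 504 in WT. Tns3 was at 1989 ± 121 (SD, n = 3) against 1552 ± 67.9. The 13 precursor genes had a median of 0.11, with 3 of 13 negative and none wholly below WT. Pdgfra, the growth factor receptor that marks precursors, was at 2071 ± 175 (SD, n = 3) against 1982 ± 113, and Tnr (tenascin-R) at 6680 ± 1402 against 6189 ± 1074. Differences between the lists themselves were not tested.

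**Figure D4:**
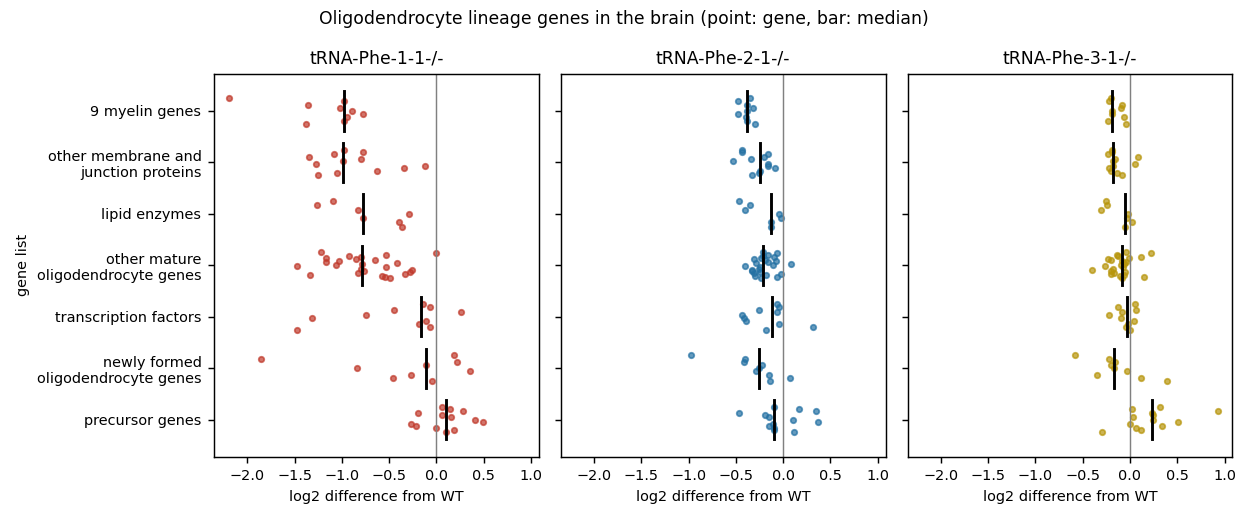
Log2 difference from WT (horizontal axis) of every measured gene of 7 lists (vertical axis) in the brain of the 3 knockout lines, with 1 point per gene and a bar at the median. In tRNA-Phe-1-1-/- the medians run from -0.99 for the other membrane and junction proteins to 0.11 for the precursor genes, and in the other lines they lie between -0.38 and 0.24.

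A pair of lineage genes was called between knockout lines. Gpr17, a receptor of the stage between precursor and myelinating cell, was higher in tRNA-Phe-1-1-/- at 1662 ± 210 (SD, n = 3) than in tRNA-Phe-2-1-/- at 1068 ± 130, a log2 difference of 0.64 ± 0.12 (SE, limma adjusted p = 0.0484), in a comparison where 0.53% of genes were called. WT lay between the lines at 1422 ± 149 and tRNA-Phe-3-1-/- at 1274 ± 100. Pllp was lower in tRNA-Phe-1-1-/- at 559 ± 133 (SD, n = 3) than in tRNA-Phe-3-1-/- at 1422 ± 446, a log2 difference of -1.33 ± 0.27 (SE, limma adjusted p = 0.0347), in a comparison where 2.11% of genes were called. Each was the only 1 of the 76 in its comparison, and neither call was stable. With 1 sample left out in turn, Gpr17 was called in 3 of 12 fits and Pllp in 4 of 12. Both were also lost without WT A, a sample outside either comparison. The groups compared did not overlap, at 1465 to 1883 against 968 to 1215 for Gpr17 and 418 to 681 against 1080 to 1926 for Pllp. In tRNA-Phe-2-1-/- against tRNA-Phe-3-1-/-, 0 of the 76 and 0% of all genes were called by limma and 0 of either by edgeR, with 5 lower and 2 higher of the 76 at an unadjusted p under 0.05, beside 9.93% of all genes. All of these comparisons share samples with one another.

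The genes whose pattern over the 12 brain samples was most like the mean of the 9 members, outside every list used here, were Tmem278 (Pearson r = 0.982), Plekhh1 (0.980), Galnt6 (0.977), Rnf13 (0.975) and Cd82 (0.973). Plekhh1 was at 698 ± 234 (SD, n = 3) in tRNA-Phe-1-1-/- and 1382 ± 124 in WT. Rnf13 was at 2711 ± 252 (SD, n = 3) against 3554 ± 280. The points share their libraries, and these correlations are a description.

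Markers of brain regions differed between samples, and not all lists went with the myelin genes. Within WT, choroid plexus markers were highest in C (13190), where 8 of the 9 myelin genes were lowest. Within tRNA-Phe-2-1-/-, striatum markers were highest in B (44250), where all 9 were lowest. The summed count of 6 thalamus markers was 12970 in WT A, 27530 in tRNA-Phe-2-1-/- C and 22560 in tRNA-Phe-3-1-/- C, and between 4831 and 7540 in the other 9 samples, and these 3 samples were the highest of their groups for each of the 9 myelin genes. The mean log2 deviation of the members from their 12-sample means was 0.59, 0.78 and 0.91 in these 3 samples and between -1.29 and 0.38 in the others. In tRNA-Phe-1-1-/- the thalamus sums were 5117, 6509 and 4831 in A, B and C, while C was highest for 8 of the 9 myelin genes. The mean log2 deviation of the thalamus markers was -1.129, -0.355 and -0.518 in A, B and C of that line, and A was lowest for 8 of the 9 genes. Choroid plexus markers summed to 244 to 634 in tRNA-Phe-1-1-/-, 649 to 13190 in WT, 221 to 53010 in tRNA-Phe-2-1-/- and 206 to 26870 in tRNA-Phe-3-1-/-. Ttr (transthyretin), the main product of that tissue, was at 34.4 ± 43.8 (SD, n = 3) in tRNA-Phe-1-1-/- and 6185 ± 5812 in WT, and Kl (klotho) at 114 ± 37.4 against 288 ± 215. Of the thalamus markers, Slc17a6, a vesicular glutamate transporter of subcortical neurons, was at 649 ± 167 (SD, n = 3) against 1879 ± 1603, and Rora at 4254 ± 753 against 5861 ± 1230. The 7 striatum markers were lowest in WT C, at 4290, and tRNA-Phe-1-1-/- A, at 3811, and between 10620 and 44250 elsewhere.

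Hypothalamus markers summed to 9342 in tRNA-Phe-3-1-/- C and 90.3 to 944 elsewhere, and cerebellum markers were highest in the same sample, at 7028, and next in tRNA-Phe-2-1-/- C, at 4523. Cerebral cortex markers were lowest in tRNA-Phe-3-1-/- C, at 7008, and lay between 17300 and 30220 in the other samples. Hindbrain markers were low throughout (12.3 to 214), with 2 of 7 above the minimum. The part of the region sampled in the differences of the myelin genes was not tested. Without the 3 samples high in thalamus markers, a setting chosen after seeing the data, the 9 genes had a median difference of -0.91 in tRNA-Phe-1-1-/-, -0.66 in tRNA-Phe-2-1-/- and -0.38 in tRNA-Phe-3-1-/-. In that setting 7 of the 76 other lineage genes were called in tRNA-Phe-1-1-/- against WT, where 1.38% of all genes were (Elovl7, Enpp6, Gal3st1, Gpr37, Gpr62, Pllp and Ppp1r14a).

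**Figure D5:**
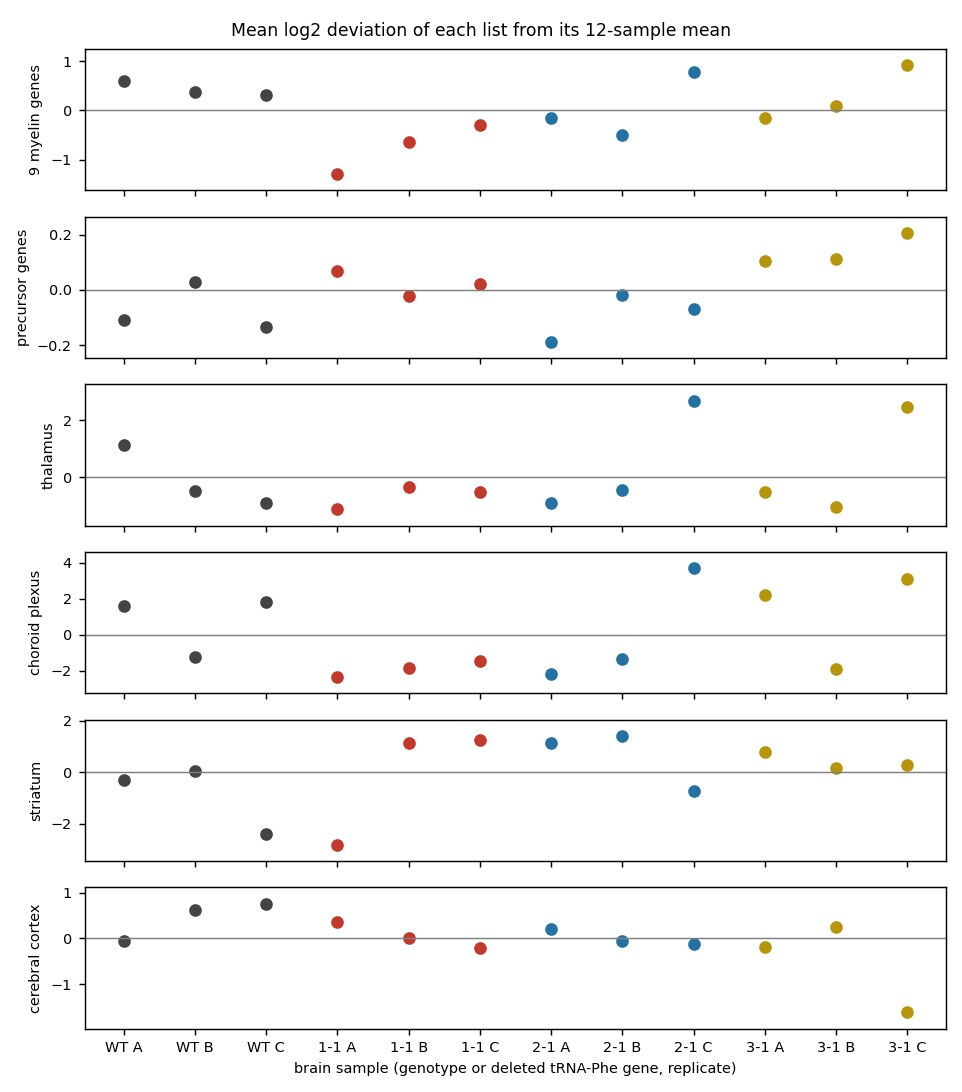
Mean log2 deviation of 6 gene lists from their 12-sample means (vertical axes) in each brain sample (horizontal axis), coloured by genotype. The thalamus markers are above 1 in WT A, tRNA-Phe-2-1-/- C and tRNA-Phe-3-1-/- C, the samples in which the 9 myelin genes are highest within their groups, and the precursor genes stay between -0.19 and 0.20.

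Markers of the other cell types were summed in the same way. Neuron markers summed to 232800 to 274100 in WT and 230500 to 257100 in tRNA-Phe-1-1-/-, astrocyte markers to 146000 to 169600 and 145500 to 167200, and microglia markers to 10890 to 12090 and 11670 to 12320. In tRNA-Phe-2-1-/- the sums were 227000 to 255000 for neuron, 158000 to 186200 for astrocyte and 10440 to 12110 for microglia markers. In tRNA-Phe-3-1-/- they were 186900 to 237300, 125700 to 135000 and 10880 to 11910. The astrocyte sums of tRNA-Phe-3-1-/- were thus wholly below those of WT, but they weigh abundant genes most. Slc1a2 alone was at 68570 ± 12820 (SD, n = 3) in tRNA-Phe-3-1-/- and 93560 ± 18250 in WT. The mean log2 deviation of the 12 astrocyte markers overlapped, at -0.19 to 0.16 against -0.16 to 0.14. Of these 12 markers, 2 lay wholly below WT and 1 wholly above it, beside 8.48% of all genes wholly below. Abundant members of the neuron and astrocyte lists were close to WT in tRNA-Phe-1-1-/-: Map2 at 61630 ± 1837 (SD, n = 3) against 55830 ± 5514, and Slc1a2, the glutamate transporter of astrocytes, at 91620 ± 11690 against 93560 ± 18250. None of the 12 astrocyte, 10 microglia or 11 neuron markers was called against WT in any line by limma, whereas at an unadjusted p under 0.05 there were 2 astrocyte and 4 microglia markers higher and 2 neuron markers lower in tRNA-Phe-1-1-/-, beside 15.9% of all genes. Of 8 endothelial markers, 3 were called in tRNA-Phe-1-1-/- against WT, 2 lower and 1 higher, where limma called 1.05% of all genes. Cldn5, a tight junction protein, was at 878 ± 31.1 (SD, n = 3) against 1285 ± 123 (log2 difference -0.54, limma adjusted p = 0.0160). Tek, the angiopoietin receptor, was at 468 ± 20.5 (SD, n = 3) against 648 ± 29.1 (-0.47, limma adjusted p = 0.0318). Ly6c1 was at 1081 ± 204 (SD, n = 3) against 578 ± 35.8 (0.89, limma adjusted p = 0.0160).

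Several of the 9 genes are also used by Schwann cells, the myelinating cells of peripheral nerve. Of 6 Schwann cell markers, Pmp2 was at 0 in all WT samples, and Prx, a defining marker, was at 6.64 ± 1.89 (SD, n = 3) in tRNA-Phe-1-1-/- and 12.5 ± 1.92 in WT. Drp2 (2942 ± 261 against 3228 ± 292) and Egr2 (464 ± 154 against 291 ± 139), which other brain cells also express, made up nearly all of the summed count of 3130 to 3733 in tRNA-Phe-1-1-/- and 3296 to 3732 in WT.

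The liver, which has no oligodendrocytes, gave values the choice of genes did not use. Opalin and Ermn were at 0 in all 12 liver samples, Mog had 1 read in 1 sample and Mobp 1 read in each of 2 WT samples. Mag was below the minimum, with 3 to 16 reads per sample. Mbp, Mal, Cnp and Aspa were tested, and 2 of the 4, Cnp and Aspa, were lower in tRNA-Phe-1-1-/- than in WT in the limma fit, in a comparison where 17.3% of liver genes were called.

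Cnp in the liver was at 549, 331 and 390 normalised counts in WT and at 236, 221 and 253 in tRNA-Phe-1-1-/-. All 3 knockout samples were below all WT samples, and the log2 difference was -0.81 ± 0.18 (SE, limma adjusted p = 0.0117). It was at 407, 496 and 404 in tRNA-Phe-2-1-/- and at 406, 440 and 556 in tRNA-Phe-3-1-/-, ranges that overlap WT. Aspa, which is active in the liver as well as in the brain, was at 436, 495 and 445 in WT and at 266, 178 and 312 in tRNA-Phe-1-1-/-, a log2 difference of -0.90 ± 0.18 (SE, limma adjusted p = 0.00603). It was at 387, 405 and 412 in tRNA-Phe-2-1-/- (-0.19 ± 0.18, SE, limma adjusted p = 0.642) and at 350, 433 and 437 in tRNA-Phe-3-1-/- (-0.18 ± 0.18, SE, limma adjusted p = 0.669).

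Mbp and Mal were low in the liver and were not called. Mbp was at 22.5, 26.7 and 133.6 in WT, where sample C stood apart, and at 27.3, 46.7 and 29.7 in tRNA-Phe-1-1-/-, a log2 difference of -0.36 ± 0.58 (SE, limma adjusted p = 0.717). Mal was at 18.1 ± 6.10 (SD, n = 3) in WT and 14.0 ± 3.10 in tRNA-Phe-1-1-/- (limma adjusted p = 0.602). In the other lines 0 of the 4 were called against WT, where limma called 0.132% of liver genes in tRNA-Phe-2-1-/- and 0.883% in tRNA-Phe-3-1-/-. For these 4 genes the lowest adjusted p was 0.642 in tRNA-Phe-2-1-/- (limma). The liver calls for Cnp and Aspa were made in each of the 21 alternatives run.

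Since the deleted genes carry phenylalanine to the ribosome, the share of phenylalanine codons (TTT and TTC) in the canonical coding sequence of each member was counted. It was 9.15% of 153 codons for Mal, 6.07% of 247 for Mog, 5.21% of 211 for Mbp, 4.76% of 420 for Cnp and 4.49% of 312 for Aspa. It was 3.53% of 170 codons for Mobp, 3.51% of 627 for Mag, 2.14% of 281 for Ermn and 2.10% of 143 for Opalin. Over 14872 brain-expressed protein-coding genes the median was 3.60%, with quartiles at 2.67% and 4.65%, and 5 of the 9 members were above it. Opalin, furthest below WT in the brain of tRNA-Phe-1-1-/-, had the lowest share of the 9, with 3 TTT and no TTC codon, and Mal, nearest to WT, had the highest. RNA levels are measured here, not translation, and with 9 genes that move together no relation was tested.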

How the data were processed

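The authors trimmed reads with Trim Galore and cutadapt, aligned them with STAR to GRCm38.p6 and estimated transcript abundance by stranded Salmon runs that corrected for GC and sequence bias (GENCODE annotation). Estimates were summed per gene with tximport and divided by DESeq2 size factors in each tissue, and the deposited values are this signal, normalised counts per gene. Size factors assume that most genes are unchanged, and scaling within each tissue bars comparison of levels between tissues. The deposited comparison tables, with the authors' mean, log2 fold change, its error and an s-value, were not used. All values in a column were whole multiples of 1 step, so 100% gave whole reads (tolerance 0.01 reads), and these gave the depth and a count test.

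Sample titles gave the genotype, tissue and replicate letter. Per tissue, log2(normalised count + 1) of all 12 samples was fitted with limma 3.58.1 in R 4.3.3 with a variance trend, for genes with a mean of at least 10. Two-sided p-values were adjusted by Benjamini-Hochberg over all genes of a comparison (threshold 0.05). The fit was checked on simulated data. Fold changes on this scale understate those of low genes. Alternatives were pseudocounts of 0.1 and 5, a minimum mean of 50 or none, no trend, TMM and quantile scaling, edgeR 4.0.16 on the recovered reads, a replicate block, and each sample left out. Of the 18 same-letter pairs between brain groups, 7 had correlated deviations above 0.1 (range -0.16 to 0.49, median 0.03). Of the 36 pairs with different letters, 9 did (range -0.36 to 0.33, median -0.035). The titles give the letters only as replicates, and letters were not taken to pair samples in the main fit. Replicates of a group differed by more than sampling noise.

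The 9 members and all lists were chosen with earlier results of these data known. Besides the members, the text names the genes of each list called against WT in any line, the 2 of highest mean brain count in each list (for several marker lists of other cells and regions, 1 of them or the summed list only, and some genes are not reported here), and the 5 genes most like the members' mean. Genes called only between lines or under an alternative, Pllp against WT and the Schwann cell markers are named beyond that rule, after their values were seen. Promoters are from RefSeq (GRCm38.p6). Codons and transcript lengths are from GENCODE vM39 on GRCm39, not the authors' annotation, and no coordinates were taken from it.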

Additional observations from a re-analysis of the deposited data

How the results depend on the processing

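The median difference of the 9 genes from WT in the brain moved by less than the spread between replicates of the knockout line under all alternatives run. For single samples left out this says little, because leaving out 1 of 3 samples can hardly move a group mean by that spread. In tRNA-Phe-3-1-/- the sign of the median turned without its sample A. The liver calls of Cnp and Aspa held in all alternatives run for the liver. Calls among the 76 other lineage genes depended on the setting. The limma fit uses 1 estimate of the spread per gene for all 4 genotypes, so samples outside a comparison enter its error. How far this accounts for the changes in calls was not tested. In tRNA-Phe-1-1-/- against WT, with 0 called, the count was 1 with a pseudocount of 5, a mean of at least 50, TMM or quantile scaling, 5 with the replicate block (Enpp6, Fa2h, Gpr62, Pllp and St18), 7 without the 3 samples high in thalamus markers, and 0 to 4 with single samples left out (4 without tRNA-Phe-2-1-/- C and 3 without tRNA-Phe-3-1-/- C). In tRNA-Phe-1-1-/- against tRNA-Phe-2-1-/-, with 1 called (Gpr17), it was 0 with a pseudocount of 0.1, no filter, no variance trend or quantile scaling, 2 with the replicate block or without the 3 samples, and 0 to 2 with single samples left out, Gpr17 being called without tRNA-Phe-1-1-/- A, tRNA-Phe-2-1-/- C or tRNA-Phe-3-1-/- C and lost without any other 1 sample. In tRNA-Phe-1-1-/- against tRNA-Phe-3-1-/-, with 1 called (Pllp), it was 0 with no variance trend, 4 with the replicate block and 0 to 6 with single samples left out, 6 without tRNA-Phe-2-1-/- C, and Pllp was called only without WT B, tRNA-Phe-2-1-/- B, tRNA-Phe-2-1-/- C or tRNA-Phe-3-1-/- B. Over all genes, the 202 calls in tRNA-Phe-1-1-/- against WT became 95 with no filter, 103 with no variance trend, and 5 (without WT C) to 281 (without tRNA-Phe-3-1-/- C) with single samples left out. The replicate block gave 173, and for the liver calls it changed none. With 3 samples per group, the highest sample of a line was up to 2.87 times its lowest (Aspa in tRNA-Phe-3-1-/-).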
